A study of Arabidopsis thaliana with 27 samples.

Results

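The later part of the wild type course on shoot-inducing medium was examined in callus of Arabidopsis thaliana: 3 arrays of day 6 against 3 arrays of day 3, which are 6 of the 27 arrays of the series. Every sample was callus from hypocotyls of 12-day-old seedlings that had spent 6 days on callus-inducing medium before the move to shoot-inducing medium. The groups compared were Columbia (Col-0) wild type after 6 days on that medium and Columbia wild type after 3 days. The wild type at the time of transfer (day 0) served to class the courses, and the mutants of UPF1 (labelled lba1-1/upf1-1, shortened to upf1-1) and of UPF3 (upf3-1), on days 6 and 3, gave the same interval in separate arrays. UPF1 and UPF3 act in nonsense-mediated decay, which removes transcripts with premature stop codons. Day 6 rests on the sample labels, as the design text of the series gives 0 and 3 days alone. Nothing states that the replicates were separate cultures, and the p-values reflect no more than the spread among these arrays.

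Regeneration from hypocotyl callus runs in steps. Auxin-rich callus medium brings out a program like that of lateral root primordia, and the cytokinin-rich shoot medium is then accompanied by a lower auxin response, induces type-A response regulators and, in places, starts shoot meristems whose cells form chloroplasts and turn green. Within the same callus other cells enlarge, loosen their walls or take root hair fates, under the influence of both hormones. Transcripts were measured on Affymetrix arrays as log2 signals, where a difference of 1 is a doubling, and signals of different probe sets cannot be set against each other.

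Signals of the 6 arrays ran from 2.04 to 13.48, and across probe sets the correlation r of any pair of arrays of 1 day was 0.994 to 0.997. UPF3 itself averaged 8.99 ± 0.015 on day 6, against 9.08 ± 0.082 on day 3 (SD, n = 3 each), and was not called. The authors' normalization gives every array the same distribution, so a shift shared by most transcripts is not visible. The poly-A spike-ins, RNAs added in fixed amounts during labelling, had mean log2 signals of 5.68, 5.58 and 5.29 on day 6, against 5.95, 5.87 and 6.11 on day 3, and centring the arrays on them moved the median change of all genes by 0.46. Changes below are relative to the median gene, which stood at -0.02 (log2). In bulk callus fewer cells of a type and less RNA per cell cannot be told apart, and since no group stayed on callus-inducing medium, the medium and time cannot be told apart either.

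Between days 3 and 6, 392 genes rose and 293 fell among 13286 tested, which is 5.16% in either direction, 2.95% higher and 2.21% lower (limma, Benjamini-Hochberg adjusted p under 0.05, 3 arrays a day, all 27 arrays in the fit). The first 3 days had moved 28.5% of the same genes, 12.9% higher and 15.6% lower. Of the 685 called in the second interval, 90 rose and 18 fell at least 2-fold, so the strong changes were mostly increases. Without day 6 replicate 3 the number called was 387, and 286 genes were called whichever of the 6 arrays was left out, 172 of them higher and 114 lower. With arrays centred on the spike-ins 9618 genes were called and 99.6% of these were higher, in place of 57.2%, so the number and the split of the calls depend on the scaling. Of the falls printed here, 17 were no longer called there, the largest of them -0.87 for AT4G15680, and the fall of WES1 changed sign. The 3 and 3 arrays did not overlap for 21.1% of all genes and for 669 of the 685.

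The courses of the 685 genes fell into 4 kinds. In 173 genes the change of the first interval went on (99 higher, 74 lower), in 202 it turned back (84 higher, 118 lower), and 231 started late, with a log2 change under 0.25 and no call in the first interval (143 higher, 88 lower). The other 79, of which 66 were higher, had a first change of at least 0.25 that was not called. A gene called in both intervals was classed by its calls even where the first change was under 0.25, which concerned 11 genes. Both intervals share the day 3 arrays, so these counts describe the courses and no test rests on them. The difference between the 2 intervals, tested gene by gene (limma), was called for 42 of the 143 late rises and 20 of the 88 late falls. For the remaining late genes the 2 intervals were not shown to differ. Genes that went on upward had a median change of 0.70 in the second interval, beside 0.70 in the first, and those that went on downward had -0.60, beside -0.89. Among the 84 genes that turned back upward, 65 no longer differed from day 0 by a call on day 6, while 16 stayed called lower than day 0 and 3 were called higher. Among the 118 that turned back downward, 66 were not called against day 0 on day 6, 51 stayed called higher and 1 was called lower. Late genes were the least stable of these counts: without day 3 replicate 3 there were 88 late rises and 49 late falls, with replicate 2 of that day left out 93 and 51, and without replicate 1 the late rises numbered 95. Likewise 49 falls went on without day 3 replicate 2 and 46 without replicate 3. The courses were not recounted without a day 6 array. The second-interval call held whichever array was left out in 44 of the 143 late rises and 17 of the 88 late falls. It held in 62 of the 99 rises and 35 of the 74 falls that went on. For genes that turned back it held in 40 of the 84 upward and 57 of the 118 downward.

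**Figure D1:**
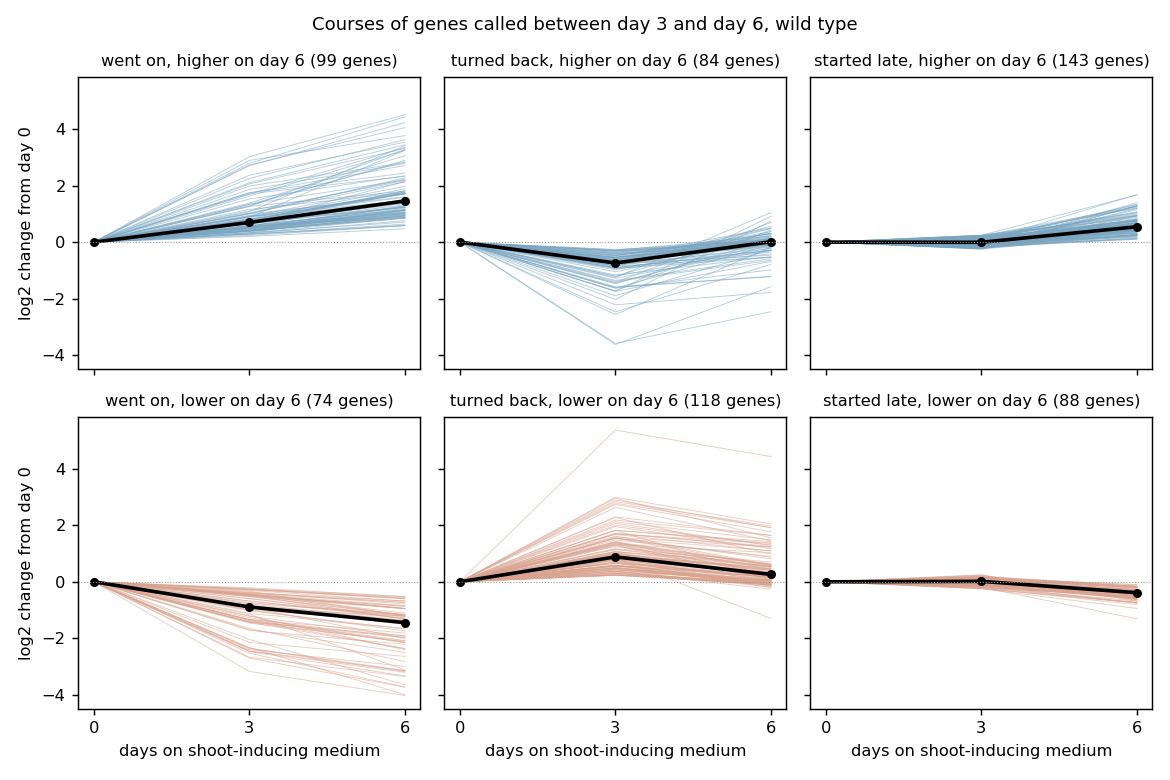
Log2 change from day 0 (vertical axis) against days on shoot-inducing medium (horizontal axis) for wild type genes called between days 3 and 6, with 1 thin line per gene and the median in black. In the upper middle panel the median returns to 0.01 on day 6, and in the lower middle panel it is 0.26.

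Genes of photosynthesis rose together. All 7 measured genes of 34 listed for light harvesting and the photosystems were called higher, and so were 3 of 4 measured genes of the Calvin cycle and photorespiration and 1 of 2 of chlorophyll synthesis, against 2.95% of all genes. The list medians were 0.80, 0.92 and 0.48, against -0.02 for all genes. In the first interval 1 of the 7 light-harvesting and photosystem genes had risen and 1 had fallen, near the 12.9% and 15.6% of all genes, with a list median of 0.12.

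The antenna protein gene LHCB4.1, part of the minor light-harvesting complex of photosystem II, had signals of 8.74, 8.90 and 9.13 on day 6, against 7.91, 8.19 and 7.71 on day 3. All day 6 arrays lay above all day 3 arrays, and the change was 0.99 (SE 0.13, limma adjusted p = 6.98e-05). Its paralog LHCB4.2 had 5.52, 5.95 and 6.02 on day 6, against 5.10, 5.19 and 4.91 on day 3 (0.77, SE 0.14, limma adjusted p = 0.00171). This gene turned back, since it had fallen by 0.69 in the first interval, and its day 6 signals came to lie near those of day 0 at 5.63, 5.70 and 5.94. The third paralog, LHCB4.3, rose by 0.61 (SE 0.16, limma adjusted p = 0.0253) after a rise of 0.52 in the first interval. Its call was lost without day 6 replicate 2 or 3 or day 3 replicate 2 or 3 (adjusted p 0.0607 to 0.163).

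Photosystem subunits rose as well. PSBW, a small subunit of photosystem II, had 8.25, 8.76 and 8.60 on day 6, against 7.56, 7.76 and 6.85 on day 3, a change of 1.14 (SE 0.17, limma adjusted p = 0.000183) after 0.12 in the first interval. PSAE-1, a stromal subunit of photosystem I, had 7.10, 7.56 and 7.66 on day 6, against 6.20, 6.73 and 6.05 on day 3 (1.11, SE 0.17, limma adjusted p = 0.000294). In both genes day 3 replicate 3 was the lowest array and the days did not overlap. ATPC1, the gamma subunit of the chloroplast ATP synthase, rose by 0.80 (SE 0.16, limma adjusted p = 0.00266), and PSBY, another photosystem II protein, by 0.92 (SE 0.15, adjusted p = 0.000405). TROL, a thylakoid rhodanese-like protein that binds ferredoxin-NADP reductase, rose by 0.88 (SE 0.13, adjusted p = 0.000183) after 0.06 in the first interval. PSAN, a lumenal subunit of photosystem I, had 7.14, 7.54 and 7.62 on day 6, against 6.67, 7.31 and 6.28 on day 3, so its days overlapped, and its rise of 0.68 (SE 0.18, adjusted p = 0.0234) was not called without day 6 replicate 2 or 3 or day 3 replicate 1 or 3 (adjusted p 0.0816 to 0.181). By name, 11 genes of thylakoid and photosystem proteins were measured, and 8 of them rose and none fell, against 2.95% of all genes called higher. PSBW and the LHCB4 genes among these 8 also belong to the light-harvesting and photosystem list, so the groups are not separate. In the first interval 5 of the 11 had fallen and 1 had risen (median -0.22), against 15.6% and 12.9% of all genes.

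Enzymes of carbon fixation and photorespiration moved in the same direction. HPR, the peroxisomal hydroxypyruvate reductase of photorespiration, had 6.29, 6.53 and 6.72 on day 6, against 5.21, 5.36 and 5.10 on day 3 and 5.11, 5.31 and 5.14 on day 0. Its whole change of 1.29 (SE 0.14, limma adjusted p = 7.8e-06) thus lay in the second interval, and the second interval exceeded the first by 1.26 (SE 0.25, adjusted p = 0.00107). PRK, phosphoribulokinase of the Calvin cycle, had 5.73, 6.23 and 6.25 on day 6, against 5.20, 5.07 and 4.62 on day 3 (1.11, SE 0.18, limma adjusted p = 0.000485). RCA, the activase of the carbon-fixing enzyme Rubisco, rose by 0.60 (SE 0.13, limma adjusted p = 0.00683), a call lost without day 3 replicate 3 (adjusted p 0.0532). SBPASE, the bisphosphatase of the same cycle, had 5.99, 6.68 and 6.59 on day 6, against 5.42, 6.19 and 5.46 on day 3, and missed the threshold (0.73, SE 0.23, limma adjusted p = 0.0677). PORB, a protochlorophyllide oxidoreductase of chlorophyll synthesis, rose by 0.62 (SE 0.13, limma adjusted p = 0.0038), while the methyltransferase CHLM stood at 0.33 (SE 0.10, adjusted p = 0.0563). LIL3:2, a light-harvesting-like protein of chlorophyll synthesis named here after its values were seen, rose by 0.52 (SE 0.11, adjusted p = 0.00531).

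Genes encoded in the plastid itself were a group looked up after the values were seen. Of 69 measured, 1 rose and 1 fell, which is near the 2.95% and 2.21% of all genes, and the median was 0.06. The risen gene was atpA, a subunit of the plastid ATP synthase (0.43, SE 0.12, limma adjusted p = 0.0296, not called without day 6 replicate 1 or 2 or day 3 replicate 2 or 3 (adjusted p 0.0935 to 0.147)), and the fallen one was ndhG of the NADH dehydrogenase-like complex (-0.57, SE 0.15, limma adjusted p = 0.0274, not called without day 6 replicate 2 or 3 or day 3 replicate 2 or 3 (adjusted p 0.0791 to 0.122)). In the first interval 20 of the 69 had fallen and none had risen, against 15.6% and 12.9% of all genes.

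Among the 12 nuclear photosynthesis genes drawn in the plot of signals by day, replicate 1 was the lowest of the 3 day 6 arrays in every gene. On day 3 replicate 3 was the lowest array in 11 of the 12 (PORB excepted). The 3' minus 5' difference of the control probe sets, a measure of RNA and labelling quality, was 1.182, 1.165 and 1.095 in day 6 replicates 1, 2 and 3, against 1.199, 1.147 and 1.258 on day 3. Both low arrays thus had the highest difference of their day. The part of such array differences in the changes was not tested beyond leaving out each array.

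**Figure D2:**
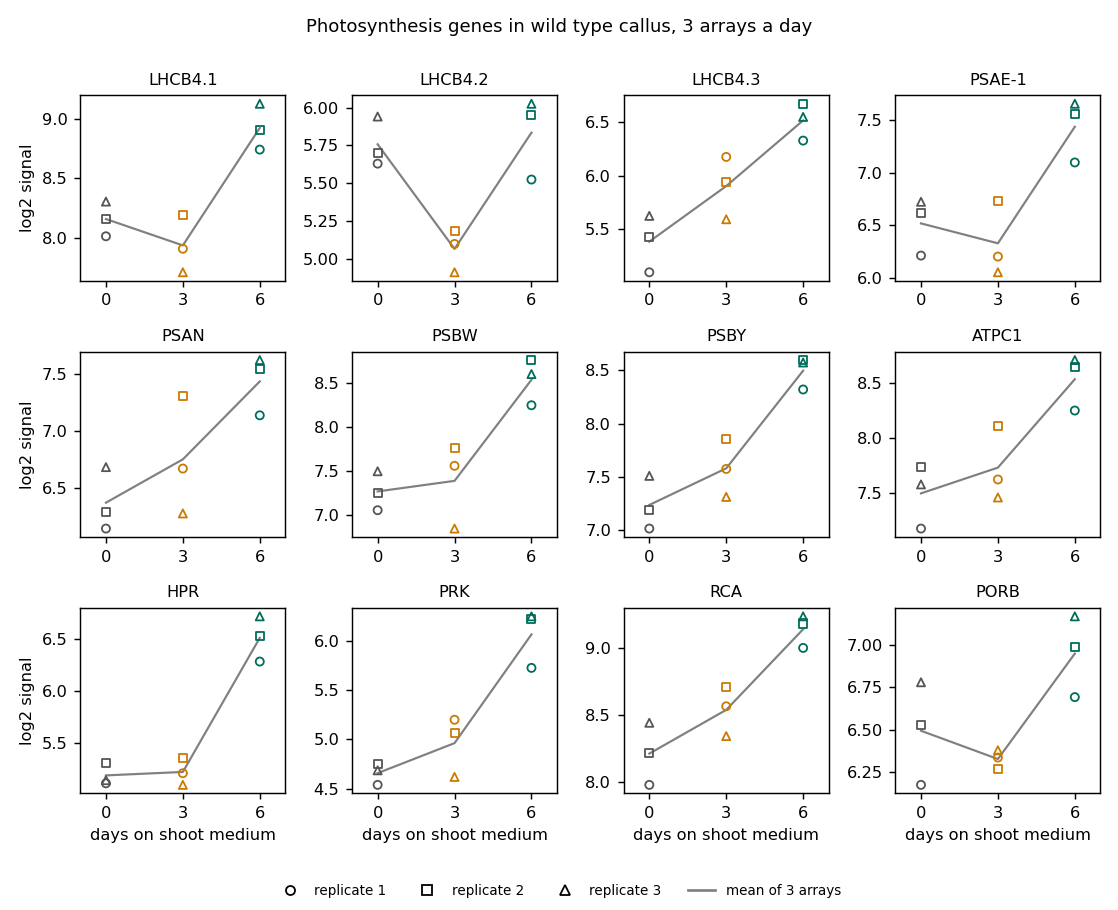
Log2 signals (vertical axes) of 12 photosynthesis genes on days 0, 3 and 6 (horizontal axes) in wild type callus, with 1 symbol per array and a line through the means of 3 arrays. In HPR the 3 day 6 arrays lie between 6.29 and 6.72, and all arrays of days 0 and 3 lie between 5.10 and 5.36.

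In the mutants HPR, LHCB4.1 and PSBW changed less by their point values, but none of these differences was called. These genes were chosen in part for their wild type rise, so the smaller mutant values are partly set by the choice. HPR changed by 1.29 in the wild type, 0.51 in upf1-1 and 0.62 in upf3-1, and the wild type change exceeded that of upf1-1 by 0.78 (SE 0.20, limma adjusted p = 0.306). LHCB4.1 changed by 0.99, 0.34 and 0.77 in the same order, and PSBW by 1.14, 0.40 and 0.57. The list median for light harvesting and photosystems was 0.80 in the wild type, 0.39 in upf1-1 and 0.67 in upf3-1. For the 3 LHCB4 genes the median was 0.77 in the wild type, 0.41 in upf1-1 and 0.77 in upf3-1.

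Of 31 root hair genes listed, 4 were measured, and the 2 root hair expansins rose, against 2.95% of all genes. EXPA18 had 7.26, 7.49 and 8.05 on day 6, against 6.16, 5.77 and 6.04 on day 3 and 4.42, 4.24 and 4.42 on day 0. It gained 1.61 in the second interval (SE 0.18, limma adjusted p = 9.27e-06), beside 1.63 in the first. EXPA7 had 7.42, 7.64 and 8.0 on day 6, against 6.56, 6.48 and 6.50 on day 3 (1.17, SE 0.18, limma adjusted p = 0.000196), and in both genes every array of a later day lay above every array of an earlier one. GH9C1, an endoglucanase of glycosyl hydrolase family 9 that was named after its values were seen, had the same stepwise course, with 7.79, 7.99 and 8.33 on day 6, against 6.76, 6.66 and 6.59 on day 3 and 4.48, 4.65 and 4.13 on day 0 (1.37, SE 0.18, limma adjusted p = 5.64e-05). The other listed root hair genes were not called: the xyloglucan enzyme gene XTH26 stood at 0.49 (SE 0.18, adjusted p = 0.136) and SCN1, which confines hair outgrowth to its site, at 0.10.

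Of 19 expansins measured, 5 rose and none fell, against 2.95% and 2.21% of all genes, and the median of all 19 was 0.16. EXPA7 and EXPA18 of the root hair list are among these 5. EXPA8 started late, with 8.51, 8.85 and 8.84 on day 6, against 7.27, 7.40 and 7.41 on day 3 and 7.54, 7.57 and 7.52 on day 0 (1.37, SE 0.17, limma adjusted p = 3.21e-05). The expansin-like EXLA1 rose by 0.73 (adjusted p = 0.0178, not called without day 6 replicate 1 or 3 or day 3 replicate 3 (adjusted p 0.0945 to 0.132)) and EXPB3 by 0.47 (adjusted p = 0.0205, not called without day 6 replicate 2 or 3 or day 3 replicate 1 or 3 (adjusted p 0.0741 to 0.125)). Pectin methylesterases, which alter wall pectin, gave 2 rises among 4 genes measured, against 2.95% of all genes. ATPMEPCRB had 5.63, 5.72 and 6.95 on day 6, against 4.41, 4.58 and 4.34 on day 3, with replicate 3 of day 6 far above its partners (1.66, SE 0.32, limma adjusted p = 0.00221). PMEPCRF rose by 0.67 (SE 0.14, adjusted p = 0.00384).

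Xyloglucan endotransglucosylases, which cut and rejoin wall xyloglucan, went both ways: 3 of 10 rose and 1 fell, against 2.95% and 2.21% of all genes, and of these 4 calls that of XTH16 alone held whichever array was left out. XTH16 had 4.29, 4.64 and 4.68 on day 6, against 3.92, 3.40 and 3.87 on day 3 (0.81, SE 0.14, limma adjusted p = 0.000713), and so turned back towards its day 0 signals of 4.32, 4.56 and 4.56. XTH19 rose by 1.01 (adjusted p = 0.0238, not called without day 6 replicate 2 or 3 or day 3 replicate 1 or 3 (adjusted p 0.0717 to 0.0945)) and XTH18 by 0.83 (adjusted p = 0.012, not called without day 6 replicate 1 or day 3 replicate 2 (adjusted p 0.0572 to 0.0598)). XTH20 fell by 0.54 (adjusted p = 0.014, not called without day 6 replicate 3 or day 3 replicate 2 (adjusted p 0.0665 to 0.0868)) after a fall of 1.12 in the first interval.

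A few further wall-related genes are named here after their values were seen. UGT72E2, which attaches glucose to coniferyl and sinapyl alcohol, had 7.78, 7.57 and 8.03 on day 6, against 6.26, 6.54 and 6.31 on day 3 and 5.84, 6.31 and 6.23 on day 0 (1.42, SE 0.21, limma adjusted p = 0.000183). BGLU45 and BGLU46, glucosidases that release such alcohols, rose by 0.76 (SE 0.16, adjusted p = 0.00396) and 0.80 (SE 0.14, adjusted p = 0.00102), both after a rise in the first interval. Of all 20 genes named BGLU that were measured, 5 rose and none fell, against 2.95% of all genes called higher, with a median of -0.00, and BGLU47 stood at -0.10. The relatives UGT72E1 and UGT72E3 were not called either (-0.35 and -0.18). TBL21 and TBL39, members of a family that acetylates wall polymers, rose by 0.85 (SE 0.18, adjusted p = 0.00552) and 0.54 (SE 0.09, adjusted p = 0.000568), 2 of 3 rises among 22 TBL genes (median -0.08). No gene of the xylem list was measured, so these changes could not be set beside markers of that tissue.

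**Figure D3:**
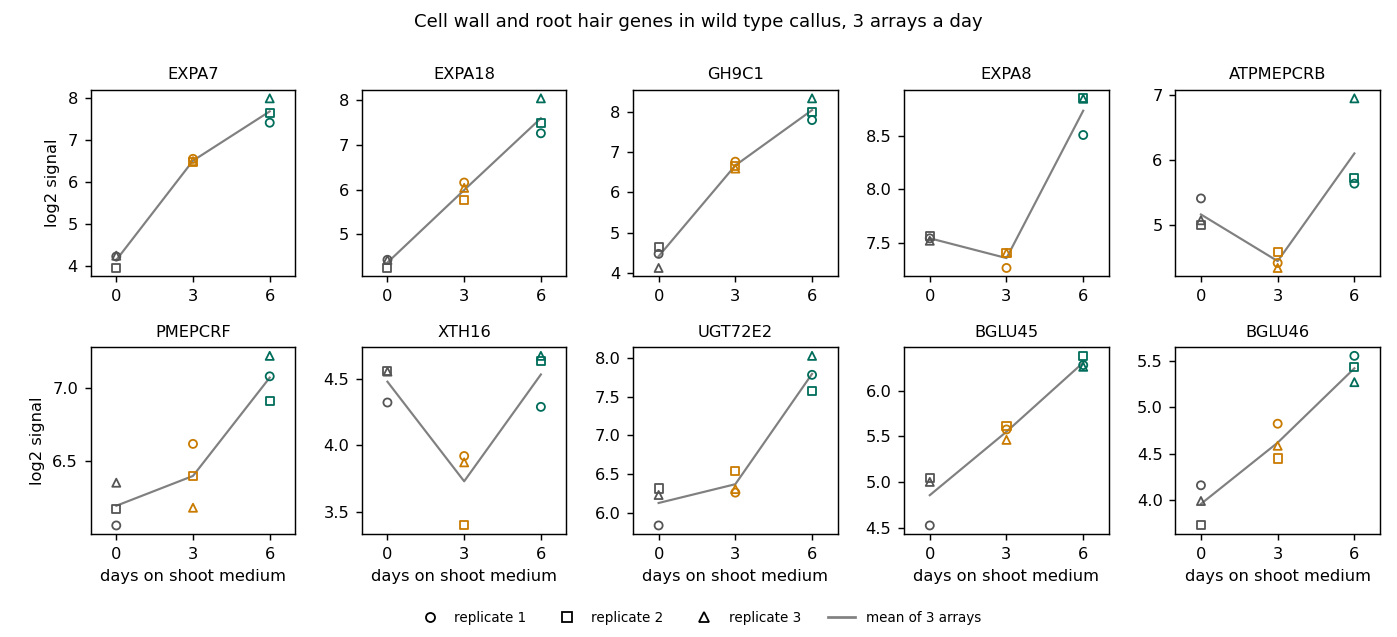
Log2 signals (vertical axes) of 10 cell wall and root hair genes on days 0, 3 and 6 (horizontal axes) in wild type callus, with 1 symbol per array and a line through the means of 3 arrays. EXPA7, EXPA18 and GH9C1 climb in both intervals, EXPA8 in the second alone and UGT72E2 mostly in the second, and XTH16 dips on day 3.

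The callus program, which had fallen in the first 3 days, fell further in 3 of its 6 measured genes (20 listed), against 2.21% of all genes called lower. None of the 3 was called with arrays centred on the spike-ins, where the changes were -0.33 for BBM, -0.28 for CR4 and -0.15 for JKD (adjusted p 0.0917, 0.127 and 0.37). BBM, an AP2 factor that promotes embryo and meristem fate, had 5.54, 5.71 and 5.68 on day 6, against 6.25, 6.51 and 6.54 on day 3 and 8.83, 8.87 and 8.64 on day 0 (-0.79, SE 0.13, limma adjusted p = 0.000497). CR4, a receptor kinase of root stem cell and epidermal patterning, had 5.24, 5.14 and 5.08 on day 6, against 5.61, 6.15 and 5.90 on day 3 (-0.74, SE 0.14, limma adjusted p = 0.00163). JKD, a zinc finger factor of root ground tissue, fell by 0.61 (SE 0.12, limma adjusted p = 0.0035), and the days did not overlap in any of the 3 genes. The other members had reached a low level by day 3 and were not called: PUCHI stood at -0.18 (SE 0.14) with 5.02, 4.45 and 4.75 on day 6, against 4.91, 4.88 and 4.98 on day 3, LBD16 at -0.29 (SE 0.14) and LBD29 at -0.23 (SE 0.15). All 6 had fallen in the first interval, against 15.6% of all genes called lower. Their median was -1.67 in that interval and -0.45 in the second. With the same centring the second median was 0.01, and PUCHI, LBD16 and LBD29 had values above 0 without a call.

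Few of the auxin and cytokinin response genes measured were called. Of 8 early auxin genes measured (19 listed), 1 was called, against 2.21% of all genes called lower. It was WES1, which conjugates auxin to amino acids, with 10.07, 9.88 and 9.85 on day 6, against 10.16, 10.41 and 10.55 on day 3 (-0.44, SE 0.13, limma adjusted p = 0.0432). That call was lost without day 6 replicate 2 or 3 or day 3 replicate 2 or 3 (adjusted p 0.114 to 0.198), and the sign turned with the spike-in centring (0.02). The median of the 8 was -0.26, and 0.20 with the spike-in centring. Without that centring 2 of the 8 lay above 0. At an unadjusted p under 0.05 (limma) 3 of the 8 were taken in, as were 2217 of all 13286 genes. The first interval had lowered 7 of the 8, against 15.6% of all genes. LBD16 and LBD29 belong to this list and to that of the callus program. Of 17 cytokinin response genes listed, 2 were measured, both cytokinin-induced type-A response regulators, and neither was called. ARR15 had 9.67, 9.92 and 9.76 on day 6, against 9.88, 9.82 and 9.84 on day 3 (-0.06, SE 0.11), and RR16 had 6.18, 6.33 and 6.38 on day 6, against 6.34, 6.42 and 6.00 on day 3 (0.05, SE 0.21). With the spike-in centring both were called higher, ARR15 by 0.40 (adjusted p = 0.0372) and RR16 by 0.51 (adjusted p = 0.0302). The 95% interval of the ARR15 change, from -0.28 to 0.16, leaves out a change of the size seen in the first interval (1.91).

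**Figure D4:**
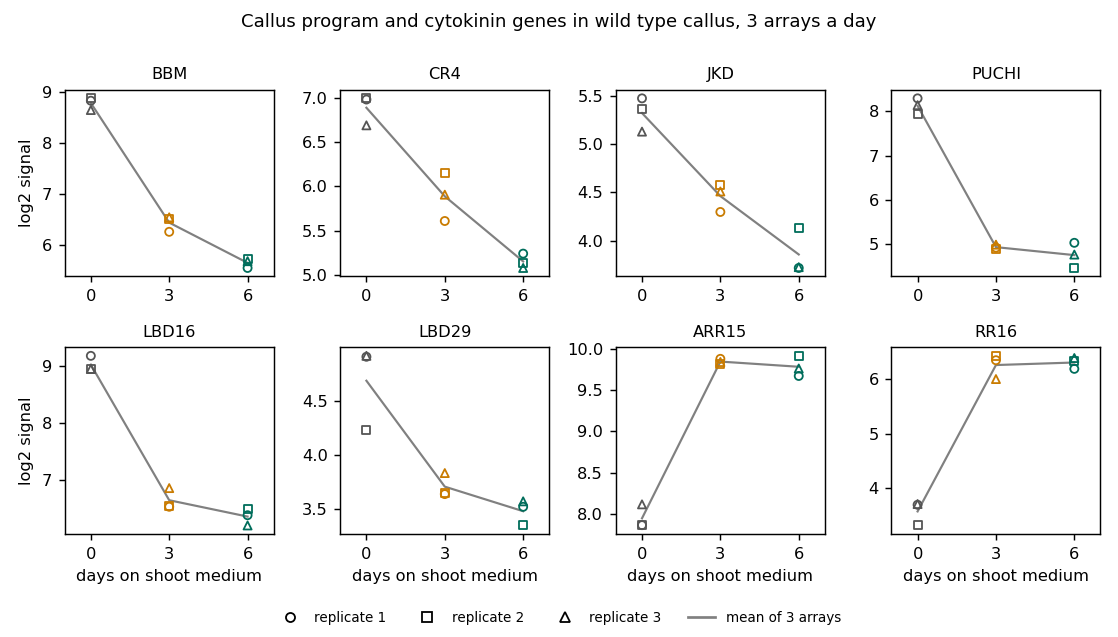
Log2 signals (vertical axes) of 6 callus program genes and 2 cytokinin response regulators on days 0, 3 and 6 (horizontal axes) in wild type callus, with 1 symbol per array and a line through the means of 3 arrays. BBM, CR4 and JKD are lower again on day 6, while ARR15 and RR16 lie near their day 3 signals.

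Markers of shoot meristem and leaf primordium, of stomata and of division gave no call in this interval (limma), where 5.16% of all genes were called. At that share lists this small can give no call, so its absence says little about these programs. Of 6 measured meristem and leaf genes, none was called; LAS, a factor of axillary meristems, stood at -0.16 (SE 0.12) and JAG, a factor of lateral organ growth, at -0.16 (SE 0.09). The list held 35 genes, so most of the shoot program was not measured by the probe sets named here. All 4 stomatal genes measured were near the bottom of the signal range, SPCH with 2.86, 3.00 and 3.00 on day 6, against 3.02, 3.01 and 3.23 on day 3, and STOMAGEN with 2.60, 2.74 and 2.66 on day 6, against 2.72, 2.81 and 2.69 on day 3. All 3 division genes had been lowered in the first interval, against 15.6% of all genes. In the second the Aurora kinase gene AUR1 stood at 0.26 (SE 0.09, adjusted p = 0.0996) and the replication helicase gene PRL at -0.10 (SE 0.07). None of 3 flavonoid genes (DFR at 0.11, UGT78D2 at -0.17) and neither of 2 listed defence genes (PDF1.2 at -0.06, SAG101 at 0.27) was called. At an unadjusted p under 0.05 the numbers were 0 of the 6 meristem and leaf genes, 0 of the 4 stomatal genes, 1 of the 3 division genes, 0 of the 3 flavonoid genes and 0 of the 2 defence genes. The same threshold took in 2217 of all 13286 genes.

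By name, 4 chitinases and PR proteins were measured. In the second interval 3 of them rose, against 2.95% of all genes, and 3 had fallen in the first, against 15.6%. OSM34, an osmotin-like protein of the PR-5 family, had 10.13, 9.01 and 9.54 on day 6, against 7.09, 6.37 and 8.09 on day 3 and 9.79, 8.88 and 10.54 on day 0 (2.38, SE 0.43, limma adjusted p = 0.00126). Its arrays within a day were spread by over 1 log2 unit, yet the days did not overlap. ChiC, a class V chitinase, had 5.63, 5.61 and 5.98 on day 6, against 4.23, 4.42 and 4.32 on day 3 (1.42, SE 0.25, limma adjusted p = 0.00104), after a first-interval change of -1.45. PR-1-LIKE rose by 0.49 (adjusted p = 0.0403, not called without day 6 replicate 2 or 3 or day 3 replicate 1, 2 or 3 (adjusted p 0.0841 to 0.175)). Named after their values were seen, the senescence and defence factor gene WRKY53 rose by 0.96 (SE 0.15, adjusted p = 0.000399) and the immune ubiquitin ligase gene PUB22 by 0.76 (SE 0.15, adjusted p = 0.0031), both after a fall in the first interval. The vacuolar processing enzyme gene BETA-VPE, also named after its values were seen, started late and rose by 1.08 (SE 0.20, adjusted p = 0.00135).

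The largest increases were mostly in loci for which the sources used here give no name. AT2G43530 had 6.91, 7.67 and 8.44 on day 6, against 4.78, 6.20 and 3.72 on day 3 (2.77, SE 0.62, limma adjusted p = 0.00729), and it was not called without day 6 replicate 3 or day 3 replicate 3 (adjusted p 0.0622 to 0.0625). AT3G29970 had 7.57, 6.46 and 8.24 on day 6, against 4.64, 4.36 and 5.32 on day 3 (2.65, SE 0.37, limma adjusted p = 0.00011). Both had fallen in the first interval and turned back, as did AT2G15220 (2.29, on a probe set that may cross-hybridise), AT4G16260 (2.16) and AT5G52390 (2.12). AT1G14960 instead went on, with 7.18, 6.92 and 7.66 on day 6, against 4.98, 5.12 and 4.65 on day 3 and 3.82, 3.79 and 3.92 on day 0 (2.34, SE 0.24, limma adjusted p = 3.17e-06). AT1G34510 (2.38) and AT5G47980 (2.02) went on as well. AT1G10585 had 8.68, 8.37 and 8.72 on day 6, against 6.39, 6.09 and 6.65 on day 3 (2.22, SE 0.33, limma adjusted p = 0.000183), after a first change of 0.55 that was not called.

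Among late rises outside the groups above, AT5G15950 had 7.35, 7.63 and 7.85 on day 6, against 6.23, 6.21 and 5.82 on day 3 (1.52, SE 0.24, limma adjusted p = 0.000397), and AT1G65500 had 8.97, 8.44 and 8.35 on day 6, against 7.30, 6.80 and 7.16 on day 3 (1.5, SE 0.26, limma adjusted p = 0.000692). In 2 others a single array carried much of the change. sks15, named for its likeness to the copper oxidase-like protein SKU5, had 4.17, 4.66 and 6.42 on day 6, against 3.34, 3.75 and 3.19 on day 3 (1.66, adjusted p = 0.0119), with replicate 3 highest, and was not called without day 6 replicate 3 or day 3 replicate 3 (adjusted p 0.0555 to 0.112). AT1G26380 had 7.64, 5.38 and 5.06 on day 6, against 4.29, 4.12 and 4.92 on day 3 (1.58, adjusted p = 0.027), with replicate 1 highest, and was not called without day 6 replicate 1 or day 3 replicate 1 or 2 (adjusted p 0.0858 to 0.184).

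Decreases were led by BAT1, an acyltransferase that acts on brassinosteroid levels. It had 4.71, 5.53 and 5.28 on day 6, against 7.41, 7.34 and 7.17 on day 3 and 6.90, 6.13 and 6.38 on day 0 (-2.13, SE 0.21, limma adjusted p = 3.17e-06), so it overshot its starting level after a rise of 0.84 in the first interval. AT1G75880, whose fall went on from the first interval, had 4.87, 4.54 and 4.01 on day 6, against 6.28, 6.41 and 6.62 on day 3 (-1.96, SE 0.20, limma adjusted p = 3.17e-06), and AT4G29020, which also went on falling, had 7.98, 7.62 and 7.85 on day 6, against 9.38, 9.43 and 9.67 on day 3 and 11.92, 11.91 and 11.60 on day 0 (-1.67, SE 0.20, limma adjusted p = 1.35e-05). AT1G29670 (-1.61) and AT3G16370 (-1.20) went on downward too. Late decreases included AT4G16447 (-1.11, SE 0.20, adjusted p = 0.00134), AT5G52050 (-0.88, SE 0.14, adjusted p = 0.000377) and AT4G16240 (-0.85, SE 0.15, adjusted p = 0.00102, on a probe set that may cross-hybridise). AT5G04000 also fell late (-0.93, adjusted p = 0.016) but was not called without day 6 replicate 1 or 3 or day 3 replicate 2 (adjusted p 0.0636 to 0.118).

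A run of neighbouring loci on chromosome 4 turned back together. AT4G15660, AT4G15680, AT4G15690 and AT4G15700 lie side by side with AT4G15670, which was not tested, in the order of RefSeq protein-coding genes. AT4G15700 had 4.19, 4.52 and 4.15 on day 6, against 5.88, 5.81 and 5.38 on day 3 and 2.75, 2.73 and 2.70 on day 0 (-1.40, SE 0.21, limma adjusted p = 0.000214). AT4G15660 had 3.95, 4.2 and 4.53 on day 6, against 5.63, 5.31 and 5.32 on day 3 (-1.19, SE 0.17, limma adjusted p = 0.00011), and AT4G15690 and AT4G15680 fell by 0.98 and 0.87 (adjusted p = 0.000485 and 0.00286). All 4 had risen in the first interval, by 2.84 to 2.96 for AT4G15680, AT4G15690 and AT4G15700 and by 2.63 for AT4G15660, and stayed above day 0 on day 6. The tested loci on either side, AT4G15650 and AT4G15710, stood at -0.07 and 0.02. Signal shared between such neighbours through similar probes was not tested. None of the 4 probe sets carries a suffix that marks cross-hybridisation. The neighbours other than AT4G15700 were chosen after their values were seen. Further genes of this course were AT3G62950 (-1.30, SE 0.16, adjusted p = 3.21e-05) and AT3G46880 (-1.21, SE 0.17, adjusted p = 9.49e-05). ROXY2, a CC-type glutaredoxin named after its values were seen, had 7.21, 7.42 and 7.46 on day 6, against 7.88, 8.31 and 7.87 on day 3 and 6.37, 6.65 and 6.47 on day 0 (-0.66, SE 0.13, limma adjusted p = 0.00208).

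Further genes that rose on day 3 and fell back were named after their values were seen unless a list or family holds them. YUC4, a flavin monooxygenase of auxin synthesis, had 4.07, 4.17 and 4.02 on day 6, against 4.77, 5.13 and 4.95 on day 3 (-0.86, SE 0.17, limma adjusted p = 0.00315). HYH, a light-signalling bZIP factor related to HY5, had 5.59, 5.88 and 5.72 on day 6, against 6.28, 6.64 and 6.47 on day 3 (-0.74, SE 0.16, limma adjusted p = 0.00521). The peptide hormone gene RALFL32 fell by 0.64 (SE 0.13, adjusted p = 0.00287) and stayed well above its day 0 signals. Of 12 glutathione S-transferases measured, 3 fell and none rose, against 2.21% and 2.95% of all genes, with a median of -0.17: GSTU25 by 0.67, GSTU16 by 0.57 and GSTU22 by 0.49. None of these 3 calls held without each array: GSTU25 was not called without day 6 replicate 2 or 3 or day 3 replicate 1 or 3 (adjusted p 0.0583 to 0.167), GSTU16 without day 3 replicate 3 (adjusted p 0.0836) and GSTU22 without day 6 replicate 2 or day 3 replicate 3 (adjusted p 0.131 to 0.132). Calcium sensors with EF hands went both ways, with 2 of 9 higher and 1 lower, against 2.95% and 2.21% of all genes; CML30 fell by 0.57 (SE 0.09, adjusted p = 0.000543), while CML38 rose by 0.91 (SE 0.21, adjusted p = 0.00961, not called without day 6 replicate 3 (adjusted p 0.101)). LPR1, a ferroxidase by which roots respond to low phosphate, did not turn back but fell further, with 6.05, 5.73 and 5.87 on day 6, against 6.64, 6.80 and 6.77 on day 3 (-0.85, SE 0.12, limma adjusted p = 0.000145).

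Whether the 2 intervals differed was tested by their difference, which was called for 12.4% of genes (1648). On the negative side, where a first-interval rise was not carried on, stood AT4G23680, with 3.17, 2.94 and 3.47 on day 0, then 8.41, 8.77 and 8.48 on day 3 and 7.72, 7.61 and 7.53 on day 6 (second minus first interval -6.30, SE 0.26, limma adjusted p = 8.15e-14). Its neighbour by locus number AT4G23670 (-5.77, SE 0.64) kept its day 3 level, with a second-interval change of 0.17, and AT4G15700 followed (-4.36). On the positive side stood AT1G54020 (5.66, SE 0.88, limma adjusted p = 7.46e-05). It had 9.45, 9.64 and 9.66 on day 0, then 6.15, 7.29 and 4.46 on day 3 and 7.28, 8.24 and 8.51 on day 6. Its day 3 arrays were spread over nearly 3 log2 units, and its second-interval call was lost without day 6 replicate 2 or 3 or day 3 replicate 3 (adjusted p 0.0566 to 0.137). OSM34 (4.93) and AT2G43530 (4.80) came next. With the spike-in centring 686 genes were called in this difference, 68.2% of them positive in place of 49.6%.

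The mutants give the same interval in other arrays, which entered the wild type calls only through the shared estimate of the spread. From day 3 to day 6, 3.12% of all genes were called in upf1-1 and 8.23% in upf3-1. Of the 685 wild type genes, 207 (30.2%) were called in the same direction in upf1-1, which is 49.9% of the genes called there, and 298 (43.5%) in upf3-1, which is 27.3% of those called there. Both mutants called 136 of them in the wild type's direction, and 6 were called in the opposite direction in either mutant. The counts by course are a description, and their differences were not tested. Of the 99 genes that went on rising, 51 were called higher in upf1-1 and 62 in upf3-1, and of the 74 that went on falling, 31 and 50 were called lower. Of the 143 late rises, 34 and 70 were called. Of the 88 late falls, 15 and 21 were called. Of the 84 that turned back upward, 28 and 39 were called higher. Of the 118 that turned back downward, 18 and 22 were called lower, and their median change was -0.57 in the wild type, -0.22 in upf1-1 and -0.13 in upf3-1. The wild type median is set by the choice of called genes and shares its day 3 arrays with the choice of course, so these medians were not tested against each other.

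The difference between genotypes was tested gene by gene. No gene was called between the wild type and upf1-1 changes (0% by limma, with 794 genes at an unadjusted p under 0.05), and 0.354% (47 genes) were called between wild type and upf3-1, 27 with a higher change in the wild type and 20 with a lower one. Of the 118 genes that turned back downward, 16 were among these 47, against 0.354% of all genes. That course was chosen on the same wild type arrays that enter this difference, so the overlap is a description and was not tested. The 47 fell to 6 without day 6 replicate 1, 12 without day 6 replicate 3, 15 without day 3 replicate 3 and 30 without day 3 replicate 2. AT3G48640 had 3.43, 3.55 and 3.40 in the wild type on day 6, against 4.96, 4.29 and 6.15 on day 3 (-1.67), while its change was 0.37 in upf1-1 and 1.42 in upf3-1 (wild type minus upf3-1 -3.09, SE 0.48, limma adjusted p = 0.00565). BAT1 changed by -2.13, -0.93 and -0.51 in wild type, upf1-1 and upf3-1 (difference to upf3-1 -1.62, SE 0.29, limma adjusted p = 0.0213). For XTH16 the changes were 0.81, -0.01 and -0.59 in the same order (difference 1.39, SE 0.20, limma adjusted p = 0.00358), and upf3-1 thus moved away from the wild type's direction.

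Of the 4 neighbouring chromosome 4 loci, AT4G15680 had a called difference to upf3-1 (-1.11, SE 0.24, limma adjusted p = 0.0475). The other 3 had differences of -0.89 for AT4G15660, -0.82 for AT4G15690 and -1.15 for AT4G15700, which missed the threshold (adjusted p = 0.115, 0.154 and 0.115). In upf1-1 none of the 4 was called from day 3 to day 6, with changes between -0.25 and 0.05. AT3G48640, AT4G05030 and AT1G35710 had day 3 signals in the wild type that differed together between arrays, with replicate 3 highest and replicate 2 lowest in each. AT4G05030 had 5.04, 4.03 and 6.31 on that day, and its fall of 1.29 by day 6 was not called without day 6 replicate 1 or 3 or day 3 replicate 3 (adjusted p 0.0536 to 0.157). AT1G35710 fell by 1.24 (SE 0.23, limma adjusted p = 0.00135), with 4.04, 4.09 and 4.2 on day 6, against 5.61, 4.41 and 6.02 on day 3.

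**Figure D5:**
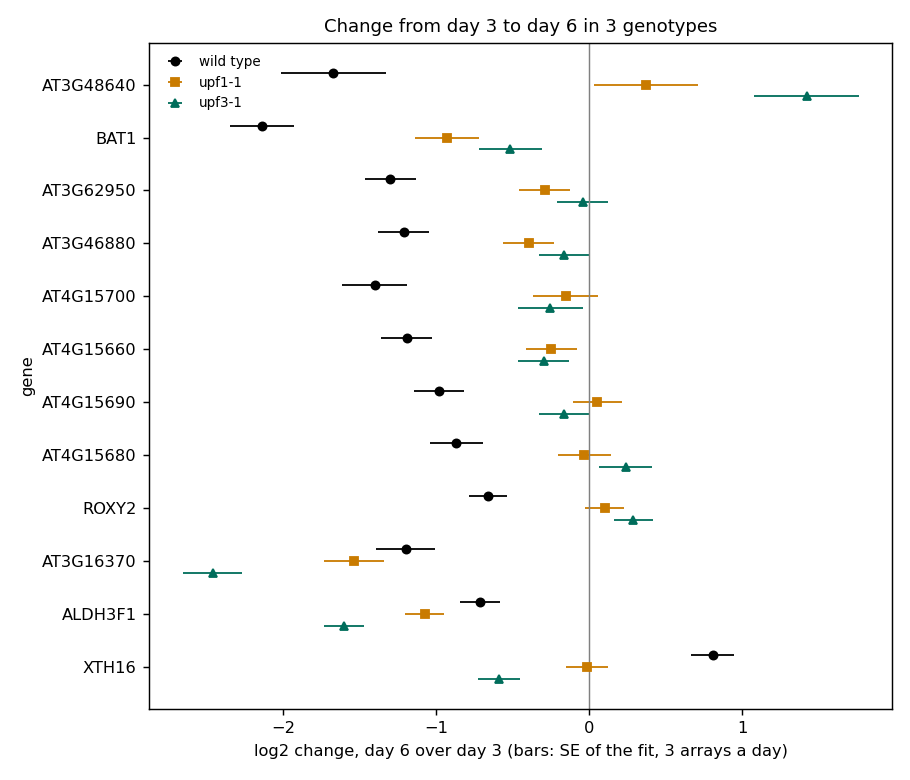
Log2 change from day 3 to day 6 (horizontal axis) with its standard error for 12 genes (vertical axis) in the wild type, upf1-1 and upf3-1, each from 3 arrays a day. In the upper 9 genes, which had turned back downward in the wild type, the wild type point lies lowest, while AT3G16370 and ALDH3F1 lie lowest in upf3-1. The genes were chosen in part for their wild type fall or for the genotype difference, so this order is partly set by the choice.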

How the data were processed

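RNA of callus was hybridised to Affymetrix arrays, 1 array per sample, 3 for each of 9 genotype and day groups taken from the labels. The log2 values per probe set were deposited by the authors and made with RMA, per the submitters' processing notes (version not given in the sources used here). This method gives all arrays the same distribution. A second deposited table held the same values (0 of 615870 differed).

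Of 22810 probe sets, 64 are controls, 13513 had 1 gene symbol in the annotation used, 503 several and 8794 none. Of the 13513, 13436 matched a locus in the RefSeq table (TAIR10.1, used for names and gene order only), and 144 genes with more than 1 probe set kept the probe set of highest mean, which left 13286 genes. Of these, 275 lie on probe sets that may cross-hybridise. All 27 arrays entered 1 limma fit (3.58.1, R 4.3.3) with a mean for every group and 18 residual degrees of freedom. Its two-sided p-values were adjusted by Benjamini-Hochberg across the 13286 genes. No second test tool was run. The number of arrays limits the precision. The procedure was tested on simulated data.

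Of 344 members of 18 gene lists, 54 were measured and named; no member was measured for endodermis, xylem, phloem, nutrient and cuticle lists. Another 34 families were matched by patterns in symbols and synonyms, since the tables hold no descriptions. The comparison, the lists and the rule for naming genes were chosen with earlier results of these data known. The rule took the 10 highest and 10 lowest called genes without overlap of arrays, the 4 largest changes of each course and direction, up to 4 called members of a list (or the 2 of smallest p), up to 3 of a family, the 3 highest and 3 lowest of each difference between intervals or genotypes, and UPF3. Genes outside it are marked in the text as chosen after their values were seen, further members of a list or family excepted. Those members may be printed without that mark. Alternatives were a replicate block, other centring, fewer arrays in the fit, a filter on dim genes, all probe sets, trended and robust eBayes, other limits for late genes, and leaving out each array. Replicate numbers do not mark a shared culture or day in the labels.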

Additional observations from a re-analysis of the deposited data

Results flagged for a closer look

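In 15 of the genes named here the change from day 3 to day 6 differed between the wild type and upf3-1 by the test of that difference (limma interaction, Benjamini-Hochberg adjusted p under 0.05, 3 arrays per group), and in none between the wild type and upf1-1. A negative difference means a lower change in the wild type. In 8 genes that had turned back downward in the wild type it was negative: -3.09 for AT3G48640, -1.62 for BAT1, -1.55 for AT3G21080, -1.54 for AT1G35710, -1.25 for AT3G62950, -1.11 for AT4G15680, -1.05 for AT3G46880 and -0.95 for ROXY2. These genes were chosen in part for their wild type change or for this difference, so the sign is partly set by the choice. AT3G21080 had wild type signals of 4.78, 4.80 and 4.90 on day 6, against 5.26, 5.29 and 5.82 on day 3, and a change of 0.92 in upf3-1.

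In the other 7 genes the difference was positive. XTH16 stood at 1.39. AT4G23680, which fell in all 3 genotypes, stood at 1.06, with changes of -0.94 in the wild type and -2.0 in upf3-1. AT3G16370 (1.26) and the aldehyde dehydrogenase gene ALDH3F1 (0.89) went on falling in the wild type and fell by more in upf3-1, where the changes were -2.46 and -1.60. ALDH3F1 was named after its values were seen. AT1G75900 (1.80), AT1G49450 (2.23) and AT1G50060 (2.69) were not called in the wild type, where they changed by -0.63, 0.55 and 0.56, against -2.43, -1.68 and -2.13 in upf3-1. Leaving out 1 wild type array at a time, the number of all genes called in this difference lay between 6 and 35. What sets the genotypes apart was not tested.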

How the results depend on the processing

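The count of 685 genes stayed within 1.5 times with a replicate block (664), with arrays centred on the reference genes (590), with only the 9 wild type arrays (468), with only genes of mean log2 signal of at least 5 (675 of 8045), without probe sets that may cross-hybridise (686) and with trended and robust eBayes (678); the second table gave 685. It was 418 with only the 6 arrays compared, 1432 of 22746 with all probe sets tested and 9618 with arrays centred on the spike-ins, and it lay between 387 and 632 when 1 array was left out. The spike-in centring gave 3250 calls for day 3 over day 0, 87.1% of them higher in place of 45.3%, and 686 in the difference between the 2 intervals. The difference to upf3-1 gave 30 calls with a replicate block, 30 with the reference gene centring, 61 with the spike-in centring, 90.2% of them positive in place of 57.4%, and 6 to 35 without 1 array; the difference to upf1-1 gave 0 to 1. Leaving out arrays for the genotype differences was added after seeing the data.

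Late rises numbered 81 and late falls 40 with only the 9 wild type arrays, and the late rises 91 with a limit of 0.15. When 1 day 3 array was left out, late rises lay between 88 and 95, late falls between 49 and 82, and falls that went on between 46 and 59.

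With the spike-in centring the list medians became 1.26 for light harvesting and photosystems, 1.38 for the Calvin cycle and photorespiration, 0.94 for chlorophyll synthesis, 0.20 for early auxin response, 0.45 for cytokinin response, 0.40 for shoot meristem and leaf primordium, 0.014 for the callus program, 1.29 for root hair, 0.43 for stomatal lineage, 0.53 for cell division, 0.57 for defence and 0.43 for flavonoids. The sign turned for WES1 (0.019), whose call was lost, for ARR15 (0.40), STOMAGEN (0.39), PRL (0.36), PDF1.2 (0.40), UPF3 (0.37) and AT4G15650 (0.39), which were then called higher, and, with no call in either setting, for PUCHI (0.28), LBD16 (0.17), LBD29 (0.23), JAG (0.30), LAS (0.30), SPCH (0.33) and UGT78D2 (0.29). The median of all genes moved by 0.46 there, which is the size of these shifts by construction.

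Of 91 called genes printed, 68 were called whichever array was left out, 91 with a replicate block, 89 with the reference gene centring, 73 with the spike-in centring, 76 with only the 9 wild type arrays, 74 with only the 6 arrays and 89 with trended and robust eBayes. Deviations of same-numbered arrays of days 6 and 3 correlated at -0.03, 0.12 and -0.14, and not every array correlated best with its own number. With 3 arrays a day these values cannot settle whether the numbers pair the samples.

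With 3 arrays a day, small changes of variable genes cannot be seen, and the many unnamed probe sets leave most list members unmeasured. Stomatal genes lay near the lower end of the signal range, where a further fall cannot be seen.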

Other observations

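Genes of primary metabolism outside the lists, chosen after their values were seen, moved in both directions. ALDH11A3, a non-phosphorylating glyceraldehyde-3-phosphate dehydrogenase of the cytosol, started late, with 4.63, 5.16 and 5.26 on day 6, against 3.96, 4.31 and 3.87 on day 3 (0.97, SE 0.17, limma adjusted p = 0.000692). CuAO1, a copper amine oxidase that degrades polyamines, had 7.04, 7.14 and 7.42 on day 6, against 6.25, 6.44 and 6.48 on day 3 (0.81, SE 0.12, limma adjusted p = 0.000214). GPDHC1, a cytosolic glycerol-3-phosphate dehydrogenase, went on falling, with 7.76, 7.67 and 7.76 on day 6, against 8.29, 8.35 and 8.47 on day 3 (-0.64, SE 0.10, limma adjusted p = 0.000214). In each of the 3 genes the arrays of the 2 days did not overlap, and the changes in upf1-1 and upf3-1 had the same sign, at 0.71 and 0.88 for ALDH11A3, 0.76 and 0.87 for CuAO1, and -0.38 and -0.89 for GPDHC1.

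Of the 499 genes changed at least 2-fold with a call in the first interval, 135 were called again in the second, against 5.16% of all genes. Another count, of second-interval changes under 0.25 in size, gave 192 of the 499. Over all genes the 5th and 95th percentiles of that change were -0.29 and 0.32, so a small change is no mark of these 192. The counts within the 499 share the day 3 arrays and are given as a description.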
